A study of Mus musculus with 6 samples.

Results

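Oxidative phosphorylation is carried out in the inner mitochondrial membrane by complexes I to V, and the nuclear genes of these complexes were followed here by nascent transcription in muscle stem cells (MuSCs) with and without the histone methyltransferase gene Kmt5b. The members were all genes of the deposited PRO-seq table whose symbol begins with Nduf, Uqcr, Atp5, Cox4, Cox5, Cox6, Cox7 or Cox8, together with Sdha, Sdhb, Sdhc, Sdhd and Cyc1. This rule, which uses the symbols alone, selected 91 of the 14546 genes in the table. By name, 38 of them fell under complex I (NADH dehydrogenase), 4 under complex II (succinate dehydrogenase), 9 under complex III (cytochrome bc1), 15 under complex IV (cytochrome c oxidase) and 15 under complex V (ATP synthase). A further 8 genes encode assembly factors of complex I, and Atp5s and Atp5sl, which carry the prefix of the ATP synthase genes but encode no subunit of it, were kept apart as a group of 2. Ndufa4 and its paralogue Ndufa4l2 were listed with complex I by symbol, although the Ndufa4 protein is known today as a component of cytochrome c oxidase. The muscle isoform Cox6a2 and the testis isoform Cox8c were not analysed here.

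As background, complexes I, III and IV pump protons while electrons pass from NADH to oxygen, complex II feeds electrons from succinate into the same chain, and complex V uses the proton gradient to make ATP. Most subunits are encoded in the nucleus and a small set, including the catalytic core of complex IV, in mitochondrial DNA, so that a complete complex needs both genomes. Several subunits of complex IV exist as a widely expressed isoform and as a tissue isoform. Muscle fibres replace Cox8a by Cox8b and Cox7a2 by Cox7a1 during differentiation, and proliferating myoblasts are known to rely more on glycolysis than fibres of the oxidative type.

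The study compared 3 Ctrl libraries (genotype label Pax7CreERT/Suv4-20h1WT) with 3 Kmt5b sKO libraries (Pax7CreERT/Suv4-20h1KO), Suv4-20h1 being the older name of Kmt5b. Both groups carry the Pax7 CreERT allele, which restricts recombination to Pax7-expressing cells, and mice on a C57BL/6 background were given tamoxifen at an age of 8 to 12 weeks. MuSCs were purified with magnetic beads and kept in culture under proliferation conditions before nuclei were prepared, so all values describe cultured cells. The labels do not state whether the libraries of a group came from separate mice, and p-values therefore measure only the spread between these libraries.

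PRO-seq maps engaged RNA polymerases by the nascent RNA they extend, and it was given for 2 regions of each gene, the first 400 nt of the listed transcript (TSS region, in RPM) and the rest of it (gene body, in TPM). The TSS values are headed TPM in the deposited table and are called RPM here. They can be compared between genes because all TSS regions have the same length, and the gene body TPM is already scaled for length. The listed genes held 926904 to 3246052 TSS reads and 7425429 to 16249122 gene body reads per library. The median tested member rested on 59.5 to 176 TSS reads and 113 to 304 gene body reads. The MuSC markers were present (Myod1 averaged 1135 TPM and Pax7 33.2 TPM), whereas the endothelial markers listed summed to at most 5.05 TPM in any library. Of the fibroblast markers Dcn and Lum were not analysed here, and the other 4, led by Col3a1, summed to between 46.7 and 72.4 TPM in Ctrl libraries and to between 49.7 and 55.5 TPM in Kmt5b sKO libraries. Of the macrophage markers Ptprc, Adgre1 and Csf1r were not analysed here. Itgam was at 0 RPM in the TSS region and averaged 0.52 TPM in the gene body, whereas Cd68 averaged 319 TPM. The signal of Kmt5b itself did not fall in Kmt5b sKO libraries (log2 fold change 0.27 at the TSS and 0.14 along the body, adjusted p = 0.72 and 0.71 from limma), so within these PRO-seq values the genotypes rest on the labels. The paper reports altered histone methylation in Kmt5b-deficient MuSCs by western blot and immunofluorescence. Of the 91 members, 86 entered the test across 12451 genes. The 3 X-linked members were left out of it with the other genes of the sex chromosomes, and Cox4i2 and Ndufa4l2 had means below 0.5 in at least 1 region. Per-library values are given in the order of the replicate numbers.

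To show what the promoters of these genes look like, RefSeq sequences were matched to 73 of the 91 members and to 11091 of the listed genes. The window reached from 250 bases upstream to 50 bases downstream of the RefSeq start. The motif of NRF1, a regulator known for many respiratory chain genes, lay in 11 of the 73 member promoters (15.1%) and in 555 of the 11091 promoters (5.00%). It was found for Ndufa6, Ndufa11, Ndufb4, Ndufaf4, Ndufaf5, Sdhd, Uqcrc1, Cox6a1, Atp5g2, Atp5o and Atp5k. The 250 bases before the start are printed for 3 of them, chosen from 3 different complexes, with the NRF1 motif and the ETS core CCGGAAG on either strand in capitals, on the strand of the gene (GRCm38.p6).
Cox6a1 (chr5:115348959-115349208, minus strand): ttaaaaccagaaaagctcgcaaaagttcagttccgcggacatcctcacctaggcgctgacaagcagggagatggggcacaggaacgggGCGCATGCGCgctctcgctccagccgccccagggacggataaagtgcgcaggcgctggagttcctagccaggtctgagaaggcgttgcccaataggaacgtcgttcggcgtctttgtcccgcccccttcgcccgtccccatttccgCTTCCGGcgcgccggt
Atp5g2 (chr15:102671048-102671297, minus strand): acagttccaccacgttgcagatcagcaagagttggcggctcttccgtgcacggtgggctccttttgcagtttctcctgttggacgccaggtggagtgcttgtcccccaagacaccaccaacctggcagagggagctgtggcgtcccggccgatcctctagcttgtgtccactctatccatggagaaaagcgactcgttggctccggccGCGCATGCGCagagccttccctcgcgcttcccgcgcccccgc
Sdhd (chr9:50603850-50604099, minus strand): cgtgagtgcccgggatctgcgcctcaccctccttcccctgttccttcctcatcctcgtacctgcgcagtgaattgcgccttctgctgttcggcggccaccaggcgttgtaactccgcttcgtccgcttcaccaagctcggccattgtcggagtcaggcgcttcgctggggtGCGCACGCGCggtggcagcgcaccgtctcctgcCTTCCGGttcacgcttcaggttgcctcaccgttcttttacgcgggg
In Cox6a1 the NRF1 motif begins 162 bases and in Atp5g2 42 bases before the RefSeq start. In Sdhd, which encodes a membrane anchor of complex II, it begins 79 bases before the start and is followed by the ETS core at 46 bases. The RefSeq starts of Cox6a1, Atp5g2 and Sdhd were offset by 23, 80 and -37 bases from the start in the deposited table (positive values lie downstream).

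Cox8b, the member with the clearest difference between genotypes, and its widely expressed counterpart Cox8a are printed for comparison, with the E-box CANNTG, the motif of myogenic factors such as MYOD1, in capitals.
Cox8b (chr7:140900447-140900696, minus strand): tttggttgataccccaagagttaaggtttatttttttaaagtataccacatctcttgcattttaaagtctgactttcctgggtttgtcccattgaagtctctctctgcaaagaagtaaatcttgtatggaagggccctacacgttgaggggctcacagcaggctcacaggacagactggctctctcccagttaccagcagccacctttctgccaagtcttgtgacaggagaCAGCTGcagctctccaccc
Cox8a (chr19:7217617-7217866, minus strand): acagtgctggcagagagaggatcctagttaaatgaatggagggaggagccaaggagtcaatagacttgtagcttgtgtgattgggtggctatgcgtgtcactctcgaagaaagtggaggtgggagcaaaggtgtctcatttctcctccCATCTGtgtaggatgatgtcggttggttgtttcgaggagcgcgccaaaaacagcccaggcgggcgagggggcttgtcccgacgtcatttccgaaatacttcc
Cox8b has a single E-box in these 250 bases, from 19 to 14 bases before the start, and Cox8a has 1 from 102 to 97 bases before it. Over the 300-base windows, with each site counted on both strands, there were 4 matches for Cox8b and 2 for Cox8a. An E-box was found in 52 of the 73 member promoters (71.2%) and in 63.7% of all promoters. The GC content of the printed stretch was 47.2% for Cox8b and 52.8% for Cox8a, whereas the members' 300-base windows had a median of 58.3% and those of all listed genes 60.7%. The MEF2 motif was in 0 of the 73 member promoters and in 1.76% of all promoters.

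Other motifs were counted in the same windows. AANATGGC, the YY1 motif, was in 16 member promoters (21.9%, against 8.28% of all promoters), among them those of Ndufs7, Ndufs8, Cox7b, Atp5b and Atp5j2. CCGGAAG was in 17 (23.3%, against 17.2%), TATAAA in 6 (8.22%, against 7.29%) and the SP motif GGGCGG in 32 (43.8%, against 63.7%). In addition, 27 of the 91 members (29.7%) had the start of a protein-coding gene on the opposite strand between 100 nt inside and 1000 nt upstream of their own, which was the case for 10.9% of the listed genes. Examples of these partners are Timm8b at 98 nt from Sdhd, Mrpl36 beside Ndufs6, Rps28 beside Ndufa7 and Eef1b2 at 3 nt from Ndufs1. Others were Kbtbd4 beside Ndufs3, Wdr4 beside Ndufv3 and Morn5 beside Ndufa8. The partners were not counted by function. These shares describe the windows and were not tested, and a match is not a binding site.

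Across the 86 tested members the nascent signal was high for most genes and its order was nearly the same in both genotypes. The median member had 40.2 RPM at its TSS and 29.1 TPM along its body, compared with 23.0 RPM and 15.8 TPM for the median of all 12451 tested genes. In single libraries the member median stood between percentiles 71.3 and 76.9 of tested genes in the gene body and between percentiles 66.1 and 74.5 in the TSS region. The gene bodies of members were short, with a median of 7015 nt against 20786 nt for all tested genes, and ranged from 804 nt (Atp5k) to 105634 nt (Ndufaf2). The members' order in Ctrl against Kmt5b sKO means had a Spearman's rho of 0.97 in the gene body and 0.94 in the TSS region over 86 genes, as a description in which genes are not replicates. Between the regions the order was much looser, with a rho of 0.49 over members and 0.67 over all tested genes.

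**Figure D1:**
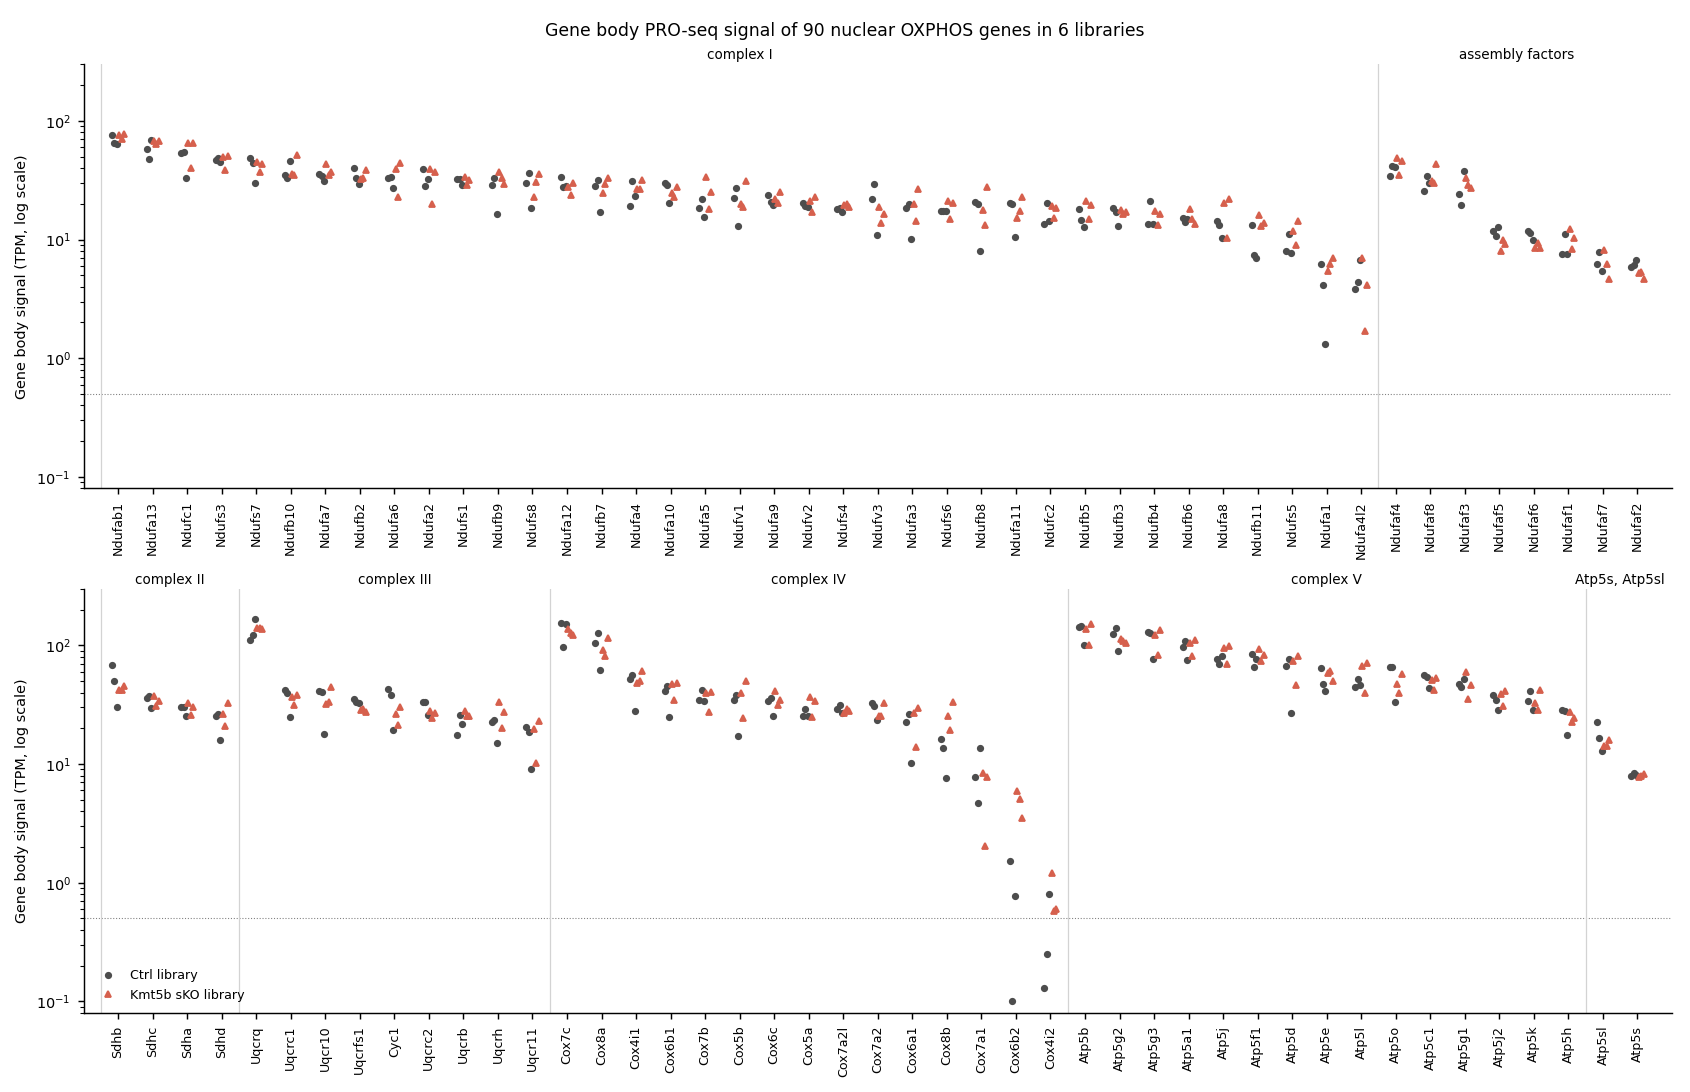
Gene body signal in TPM (log axis) of 90 of the 91 members in the 3 Ctrl (circles) and 3 Kmt5b sKO (triangles) libraries, grouped by complex and ordered by mean; the value of 0 of Cox6b2 is drawn at 0.1 and the dotted line marks 0.5. Most genes lie between 10 and 100 TPM, and the lowest members of complex IV are tissue isoforms.

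Complex V had the highest median gene body level of the groups, 53.7 TPM over 15 genes. Atp5b, the catalytic beta subunit, reached 142, 147 and 101 TPM in Ctrl against 139, 100 and 152 TPM in Kmt5b sKO libraries. Both groups span the same range, with the lowest library of each near 100 TPM. The gene for the neighbouring alpha subunit, Atp5a1, averaged 96.3 TPM. The c subunit of the proton-driven ring is encoded by Atp5g1, Atp5g2 and Atp5g3, whose mature proteins are identical, and these averaged 47.7, 114 and 113 TPM. Thus the polymerase signal of this subunit was shared by all 3 genes, with Atp5g1 the lowest. The lowest member of complex V, Atp5h (subunit d of the stalk), still averaged 24.8 TPM, so that the highest and lowest genes differed 5.25-fold.

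Complex IV spanned the widest range. Cox7c and Cox8a, a pair of small structural subunits, averaged 132 and 97.1 TPM in the gene body. Cox7c held 154, 97.3 and 152 TPM in Ctrl against 138, 127 and 122 TPM in Kmt5b sKO libraries. The Kmt5b sKO values lie inside the Ctrl range. Cox6b2, the testis isoform, was the lowest tested member with 2.81 TPM, 46.9-fold below Cox7c. Of the larger nuclear subunits, Cox4i1, Cox5a and Cox5b averaged 49.3, 29.2 and 34.1 TPM.

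In complex III a single gene stood apart. Uqcrq, a small subunit that binds ubiquinone, averaged 136 TPM, the highest level of all members, while the other 8 genes lay between 16.9 (Uqcr11) and 35.4 TPM (Uqcrc1). Uqcrq held 112, 121 and 166 TPM in Ctrl against 140, 140 and 139 TPM in Kmt5b sKO libraries. The Kmt5b sKO libraries were almost equal and lay within the wider Ctrl range. The catalytic subunits Cyc1 (cytochrome c1) and Uqcrfs1 (the Rieske iron-sulfur protein) averaged 29.8 and 31.1 TPM.

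The 4 genes of complex II were close to each other, from 24.7 TPM for Sdhd to 46.3 TPM for Sdhb. Sdha, the flavoprotein that oxidises succinate, held 29.97, 29.99 and 25.5 TPM in Ctrl against 32.7, 25.9 and 30.2 TPM in Kmt5b sKO libraries. Sdhb, the iron-sulfur subunit, held 68.1, 50.3 and 30.1 TPM in Ctrl against 42.2, 42.0 and 45.2 TPM in Kmt5b sKO libraries. For both genes the groups overlapped, and the Ctrl libraries of Sdhb spread (SD 19.0 TPM) more widely than its group means of 49.5 and 43.1 TPM differed. Sdhc, a membrane anchor, averaged 34.2 TPM.

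Complex I, the largest group, had the lowest median of the complexes, 25.7 TPM over 35 tested genes. Its highest members were Ndufab1, the acyl carrier protein of mitochondrial fatty acid synthesis, with 71.2 TPM, and Ndufa13 with 62.3 TPM. The lowest tested member was Ndufs5 with 10.4 TPM. Genes of the catalytic core were found over much of this range, for example Ndufs7 (41.4 TPM), Ndufs1 (31.2 TPM), Ndufs8 (29.0 TPM), Ndufv1 (22.1 TPM) and Ndufv2 (19.8 TPM). The 8 assembly factors of complex I, which are not retained in the finished enzyme, had a median of 10.2 TPM. They fell into 3 genes above 28 TPM (Ndufaf4, Ndufaf8 and Ndufaf3) and 5 genes from 5.65 TPM (Ndufaf2) to 10.4 TPM (Ndufaf5). The 2 remaining genes, Atp5sl and Atp5s, averaged 16.0 and 8.10 TPM.

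The level of the group as a whole moved from library to library within each genotype. Summed over the 91 members, the gene bodies held 3438, 3406 and 2723 TPM in Ctrl (mean 3189 ± 404, SD, n = 3) and 3530, 2901 and 3663 TPM in Kmt5b sKO libraries (3365 ± 407, SD, n = 3). Each genotype had 1 low library, Ctrl replicate 3 and Kmt5b sKO replicate 2, and the groups overlapped. As a share of the TPM of all listed nuclear genes the members made up 0.832%, 0.832% and 0.713% in Ctrl against 0.885%, 0.740% and 0.893% in Kmt5b sKO libraries. The 5 mitochondrially encoded genes of the table (mt-Co1, mt-Cytb, mt-Nd2, mt-Nd4 and mt-Nd5) took the opposite course. They held 28.3%, 28.1% and 36.9% of all listed gene body TPM in Ctrl against 28.4%, 31.9% and 24.9% in Kmt5b sKO libraries. The libraries with the highest mitochondrial shares were those with the lowest nuclear shares, and Kmt5b sKO replicate 3 was lowest in the one and highest in the other. The part of the mitochondrial share in the nuclear values was not tested.

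**Figure D2:**
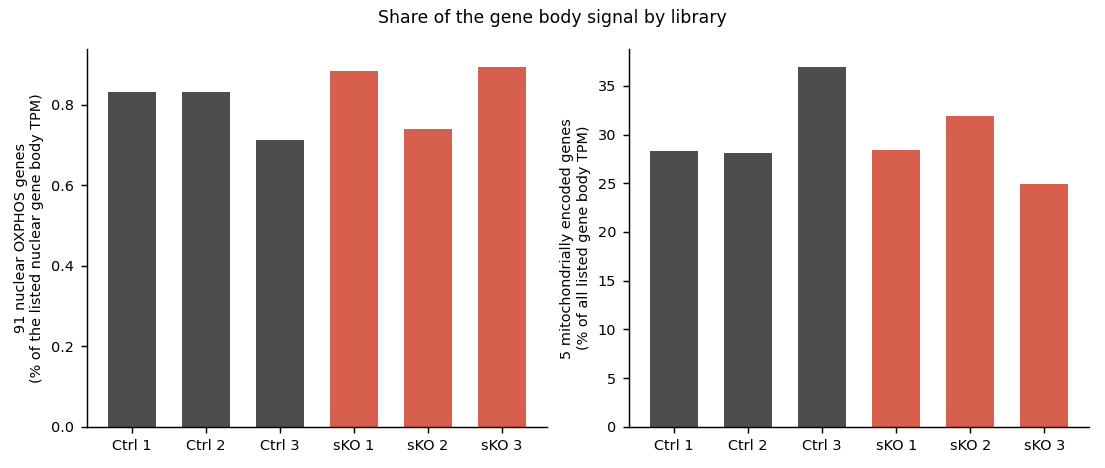
Share of the gene body signal by library, in percent: left, the 91 members out of all listed nuclear genes; right, the 5 mitochondrially encoded genes out of all listed genes. Ctrl replicate 3 and Kmt5b sKO replicate 2 are low on the left (0.713% and 0.740%) and high on the right (36.9% and 31.9%).

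Ctrl replicate 3 had the lowest gene body value of the 6 libraries for 51 of the 86 tested members and the lowest TSS value for 36. Set against the other Ctrl libraries, its median log2 difference in the gene body was -0.35 over members and -0.13 over all tested genes. At the TSS it was -0.26 and -0.12. The gene body difference varied with gene length and was -0.44 over the 59 members with a body under 10000 nt and -0.21 over the 27 longer ones. Over all tested genes of these length classes it was -0.21 and -0.11. At the TSS the members went the other way, with -0.21 for the shorter and -0.32 for the longer ones. All tested genes had -0.15 and -0.11 there. For single genes the spread also followed length. The highest library exceeded the lowest by a median of 1.62-fold over tested members, by 1.96-fold over the 14 with a body under 2500 nt and by 1.40-fold over those of at least 10000 nt. Only 1 or 2 tested members per library had fewer than 10 gene body reads, and the cause of the wider spread of short genes was not tested.

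The ratio of TSS signal to gene body signal, a pausing index, placed the members near the middle of all genes. The median index was 1.43 RPM per TPM over 84 members and 1.55 over the 11698 genes with signal in both regions of every library. Complex V had a median of 0.990, with genes from 0.248 to 2.88, and complex I a median of 1.62, with genes from 0.152 to 9.32. The highest indices belonged to Ndufs7 (9.32), Atp5s (6.33) and Ndufb4 (5.88). Ndufs7, a core subunit that carries an iron-sulfur cluster, had the highest TSS level of all members, with 271, 390 and 488 RPM in Ctrl against 386, 421 and 359 RPM in Kmt5b sKO libraries. Its RefSeq start lies 328 nt downstream of the listed one, within the 400-nt TSS region. Above the 95th percentile of all tested genes (5.86) were these 3 members.

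The lowest indices of these 84 members were those of Ndufa13 (0.152), Atp5j (0.248) and Ndufa5 (0.311). Atp5f1, subunit b of the ATP synthase stalk, was not among them for lack of TSS signal, as its TSS region held 7, 0, 1, 8, 0 and 0 reads in the 6 libraries, although its gene body averaged 79.5 TPM. The other annotated transcripts of Atp5f1 begin outside the TSS region: 1 protein-coding transcript starts 5918 nt downstream of the listed start, and those at 823, 835, 853 and 4093 nt are annotated as retained introns or as subject to nonsense-mediated decay. For Ndufa13 the RefSeq start lies 538 nt downstream of the listed one, likewise outside, and the annotation of another protein-coding gene, Yjefn3, overlaps it on the same strand. The values of the TSS region of both genes depend on which start was listed.

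**Figure D3:**
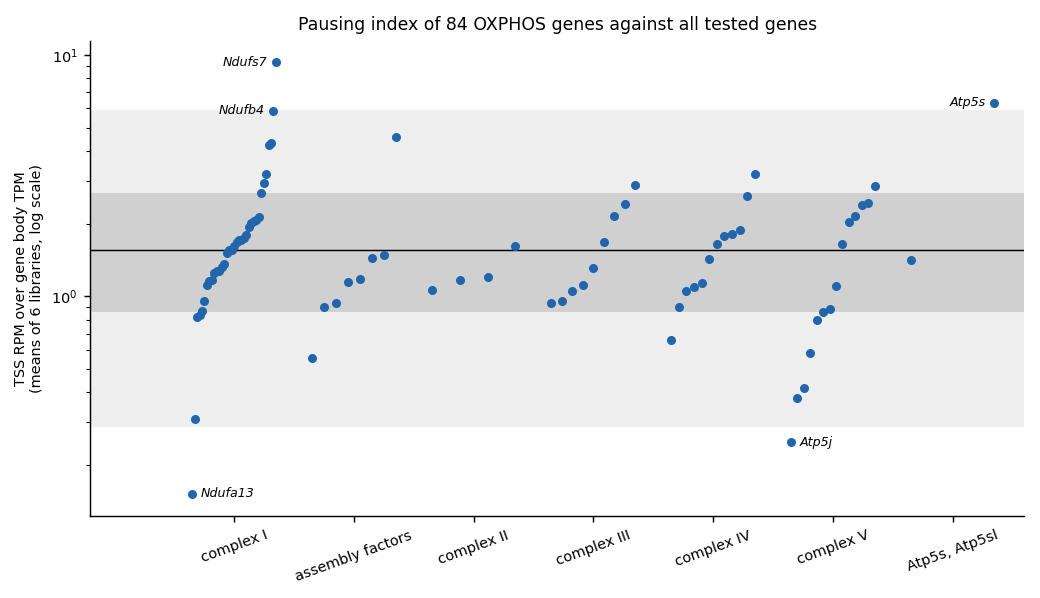
Pausing index (TSS RPM over gene body TPM, from the means of 6 libraries, log axis) of 84 members by group; the line is the median of the 11698 genes, and the dark and light bands span their quartiles (0.872 to 2.65) and their 5th to 95th percentiles (0.290 to 5.86). Most members lie inside the bands, and Ndufs7, Ndufa13 and Atp5j are among the few outside.

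Next, the tissue isoforms were set against their common counterparts. Cox8b, the muscle isoform of subunit VIII, lies on the minus strand of chr7:140898945-140900446, has 2 exons and a gene body of 1101 nt, 13.1% of it exonic. In the TSS region it held 25.9, 32.8 and 18.2 RPM in Ctrl against 62.0, 57.5 and 105 RPM in Kmt5b sKO libraries. All 3 Kmt5b sKO libraries lay above all 3 Ctrl libraries. The difference, 1.52 on the log2 scale (standard error 0.28), passed the test in limma (adjusted p = 0.029), and Cox8b was thus 1 of 86 tested members (1.16%) called in this region, where 1.66% of all tested genes were called (0.932% as higher). No other member was called there. Its call was lost without Ctrl replicate 1 (1.54, adjusted p = 0.17) and without Kmt5b sKO replicate 3 (1.24, adjusted p = 0.13), and with an unchanged fold change also without the filter on low values (adjusted p = 0.32), without the trend of the variance (adjusted p = 0.21) and with the replicate block (adjusted p = 0.14). It passed in edgeR on the recovered reads (1.52, adjusted p = 0.024) and in DESeq2 (1.51, adjusted p = 0.0010).

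In the gene body Cox8b held 16.2, 13.6 and 7.63 TPM in Ctrl against 25.3, 19.4 and 33.3 TPM in Kmt5b sKO libraries, from 12 to 35 reads. The groups again did not overlap, yet the log2 fold change of 1.06 (standard error 0.30) did not pass the test (adjusted p = 0.15 from limma). Cox8a, its counterpart, held 199, 151 and 181 RPM in Ctrl against 170, 156 and 194 RPM in Kmt5b sKO libraries, a difference of -0.03 on the log2 scale (limma, adjusted p = 0.98). The Cox8a groups thus covered the same range. The TSS signal of Cox8b, taken as a percentage of that of Cox8a, was 12.98%, 21.8% and 10.03% in Ctrl against 36.5%, 36.9% and 54.3% in Kmt5b sKO libraries. In the gene body the percentages were 15.4%, 10.7% and 12.3% in Ctrl against 27.6%, 23.8% and 29.1% in Kmt5b sKO libraries. Both comparisons gave p = 0.1 in a two-sided exact permutation test, the smallest p that 3 libraries against 3 allow and the one that any full separation gives. In the same test Cox7a1 over Cox7a2 gave 0.9 (TSS) and 0.6 (gene body), and Cox6b2 over Cox6b1 gave 0.3 and 0.1. Cox4i2 over Cox4i1 and Ndufa4l2 over Ndufa4 gave 0.6 and 0.4 in the gene body.

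Markers of muscle differentiation also had higher values in most cases. Of 12 differentiation markers, all tested, 11 had a positive log2 fold change in each region, with a median of 0.65 in both, whereas 58.2% (TSS) and 53.8% (gene body) of all tested genes were above 0. Unadjusted p-values under 0.05 were found for 8 of the 12 (TSS) and for 4 (gene body), beside 11.0% and 15.9% of all tested genes. Of the 12, Tnnc1, the slow and cardiac troponin C, was called in each region (TSS log2 fold change 1.40, adjusted p = 0.029, and gene body 1.27, adjusted p = 0.075, from limma), where 1.66% and 2.99% of all tested genes were called. In the gene body no gene at all was called with the replicate block, without Ctrl replicate 1 or without any single Kmt5b sKO library. The gene body call of Tnnc1 was thus lost in each of these. The summed TSS signal of the 12 markers ranged from 3048 to 3949 RPM in Ctrl against from 4187 to 6732 RPM in Kmt5b sKO libraries, and their summed gene body signal from 2537 to 4764 TPM and from 4958 to 6632 TPM. Among the markers of mature fibres Myh1, Actn3 and Mb could be tested, with none called and a median of 1.18 in the TSS region, whereas Myh2, Myh4 and Pvalb were below 0.5 RPM there. Kmt5b sKO replicate 3, the highest library for Cox8b, was also the highest for both marker sums. In bulk samples a larger share of differentiating cells and more transcription per cell cannot be told apart, and the part of the markers in the result for Cox8b was not tested.

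The other tissue isoforms had lower signals. Cox7a1, the muscle isoform of subunit VIIa, held 6.54, 4.6 and 3.03 RPM in Ctrl against 3.93, 5.28 and 5.98 RPM in Kmt5b sKO libraries. Its groups overlapped there, as they did in the gene body, where it held 7.82, 4.73 and 13.7 TPM in Ctrl against 8.48, 2.05 and 7.76 TPM in Kmt5b sKO libraries. The common isoform Cox7a2 had on average 8.29 times its TSS level. Cox4i2, the isoform of lung and hypoxic tissues, had a mean of 0.593 TPM, 83.1-fold below Cox4i1. Ndufa4l2, known as a target of hypoxia signalling, averaged 4.63 TPM along the body but only 0.290 RPM at the TSS.

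In the gene body 1 of the 86 tested members was called as well, Cox6b2, while 2.99% of all tested genes were called there (1.61% as higher). It held 1.52, 0.00 and 0.78 TPM in Ctrl against 5.98, 5.08 and 3.49 TPM in Kmt5b sKO libraries, with no overlap. These values stand for 2, 0 and 1 reads in Ctrl against 6, 3 and 3 reads in Kmt5b sKO libraries. Scaled for depth, the ratio of the 12 reads to the 3 reads was 5.93, with a 95% interval of 1.60 to 32.7 (exact binomial, counting error only). The fitted log2 fold change of 2.27 depends on the pseudocount (3.21 with 0.1 in place of 0.5). The adjusted p of 0.090 from limma rose to 0.20 in edgeR, 0.33 in DESeq2, 0.17 with the pseudocount of 0.1, 0.10 without the filter on low values and 0.25 with the replicate block, and the call was lost without Ctrl replicate 1 (adjusted p = 0.20) and without each of the Kmt5b sKO libraries (adjusted p = 0.21 to 0.26). In the TSS region the same gene had 1.47 ± 0.72 RPM in Ctrl against 0.85 ± 0.82 RPM in Kmt5b sKO libraries (SD, n = 3), and no change was detectable at this depth.

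**Figure D4:**
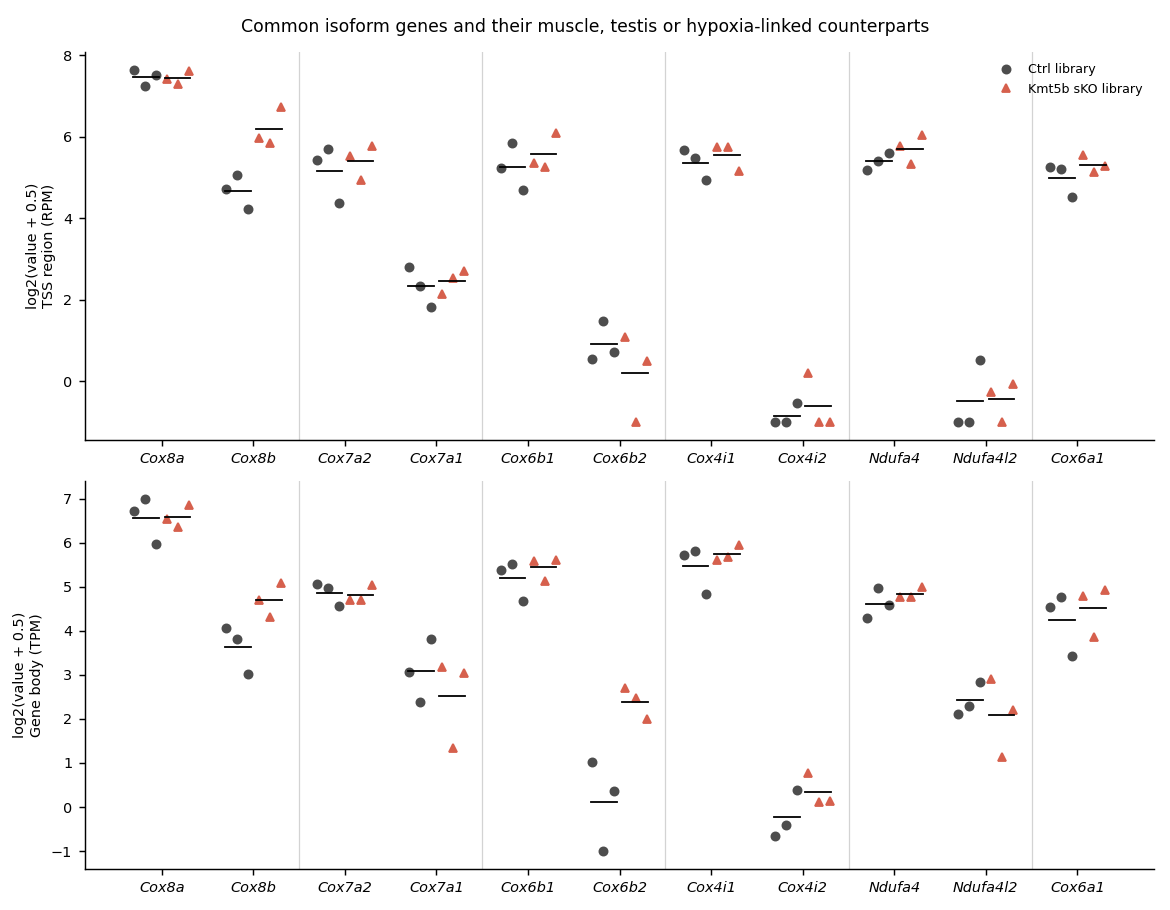
Signal on the log2(value + 0.5) scale of common isoform genes and, to the right of each, the tissue isoform (Cox6a1 has no counterpart shown), in the TSS region (top, RPM) and the gene body (bottom, TPM); points are libraries and lines the group means of the log2 values. The groups are separate for Cox8b in both regions and for Cox6b2 in the gene body.

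Apart from these isoforms, no member passed the test in either region. At an unadjusted p under 0.05 the TSS region held 5 members of 86 (11.0% of all tested genes) and the gene body 3 (15.9% of all tested genes). The libraries of the groups did not overlap for 7 of 86 members in each region, while 15.6% (TSS) and 21.4% (gene body) of all tested genes did so. The median log2 fold change over members came to 0.13 at the TSS and to 0.10 in gene bodies, beside 0.08 and 0.02 over all tested genes. A positive value was found for 53 and 60 of the 86 members, that is 61.6% and 69.8%, compared with 58.2% and 53.8% of all tested genes. The gene body median was -0.03 without Ctrl replicate 3, the library in which most members were lowest, and the TSS median was then 0.02. Over all tested genes the medians of that run were -0.01 and 0.04. Without Kmt5b sKO replicate 2, the low library of the other genotype, the member median was 0.19 in each region. All tested genes then had 0.04 in the gene body and 0.07 at the TSS.

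By complex, the median log2 fold change in the gene body was 0.13 for complex I (29 of 35 genes above 0), 0.02 for complex II (2 of 4), 0.09 for complex III (6 of 9), 0.23 for complex IV (9 of 13) and 0.04 for complex V (10 of 15). In the TSS region the medians were 0.16 (26 of 35), 0.27 (3 of 4), -0.01 (4 of 9), 0.13 (7 of 13) and 0.14 (9 of 15). The assembly factors of complex I had medians of 0.05 in the gene body and -0.17 in the TSS region. The summed gene body signal of complex I was 1058, 1037 and 845 TPM in Ctrl against 1114, 931 and 1170 TPM in Kmt5b sKO libraries, and that of complex V 1103, 1105 and 819 TPM and 1124, 863 and 1151 TPM. Both sums overlapped between the groups and had the same low libraries.

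**Figure D5:**
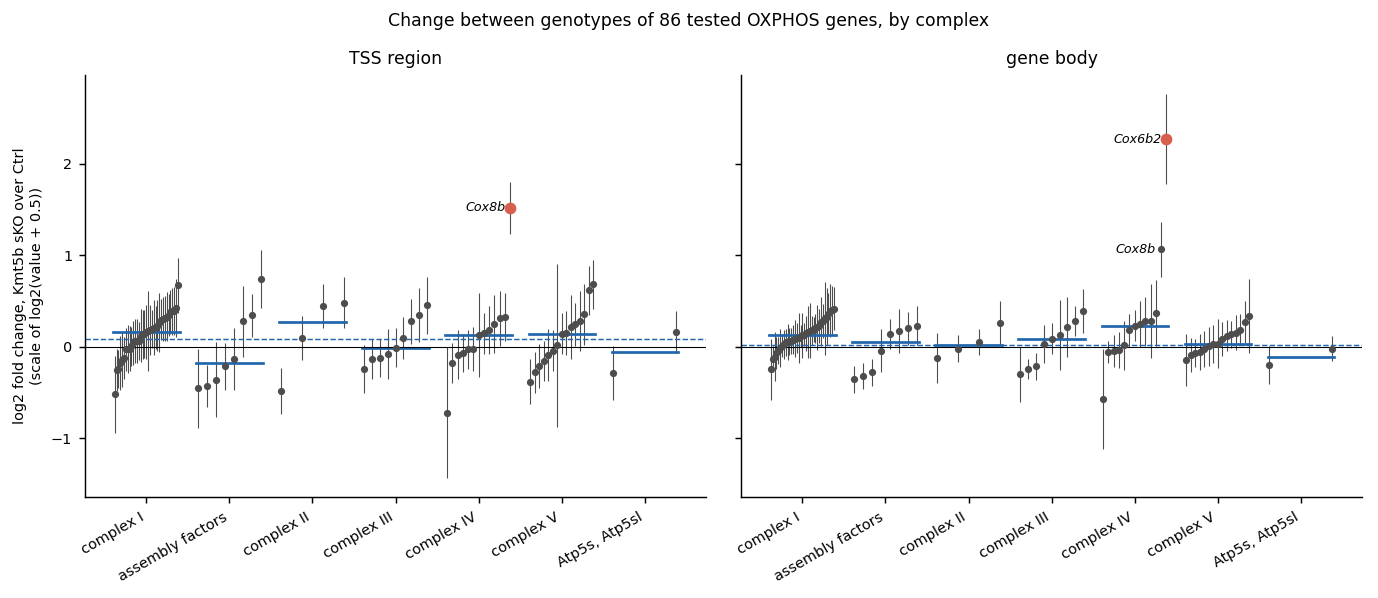
Log2 fold change of Kmt5b sKO over Ctrl (scale of log2(value + 0.5)) for the 86 tested members in the TSS region (left) and the gene body (right), with standard errors from limma; blue bars are group medians, the dashed line is the median of all tested genes, and red points passed an adjusted p of 0.1. Cox8b (1.52) stands apart on the left and Cox6b2 (2.27) on the right.

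The members next to the threshold in the TSS region came from different complexes. Atp5l, subunit g of the ATP synthase, held 45.5, 37.9 and 24.8 RPM in Ctrl against 63.9, 41.6 and 67.6 RPM in Kmt5b sKO libraries (log2 fold change 0.68, adjusted p = 0.32 from limma), and the groups overlapped. Atp5k, subunit e, held 18.4, 23.0 and 22.7 RPM in Ctrl against 29.5, 28.4 and 42.3 RPM in Kmt5b sKO libraries (0.62, adjusted p = 0.39 from limma), without overlap. These subunits lie next to each other at the membrane part of the enzyme and take part in its dimerisation.

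Ndufaf3, an early assembly factor of complex I, held 11.1, 10.9 and 12.3 RPM in Ctrl against 17.7, 15.9 and 26.2 RPM in Kmt5b sKO libraries (0.74, adjusted p = 0.38 from limma), without overlap. Ndufa8, an accessory subunit, held 24.0, 16.7 and 13.6 RPM in Ctrl against 32.8, 22.5 and 30.8 RPM in Kmt5b sKO libraries (0.67, adjusted p = 0.40 from limma). Its lowest Kmt5b sKO library lay below the highest Ctrl library. In the opposite direction, Sdha held 46.0, 39.1 and 33.9 RPM in Ctrl against 28.2, 23.8 and 33.1 RPM in Kmt5b sKO libraries (-0.48, adjusted p = 0.53 from limma), and its groups were separated by less than 1 RPM.

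In the gene body the smallest p-values after Cox6b2 and Cox8b belonged to genes with lower means in Kmt5b sKO libraries. Ndufaf5, an assembly factor that modifies the core subunit Ndufs7, held 11.8, 10.7 and 12.7 TPM in Ctrl against 8.05, 9.96 and 9.19 TPM in Kmt5b sKO libraries (-0.35, adjusted p = 0.31 from limma). Ndufaf6 held 11.8, 11.4 and 9.98 TPM in Ctrl against 8.43, 9.37 and 8.47 TPM in Kmt5b sKO libraries (-0.32, adjusted p = 0.33), and Ndufaf2 held 5.86, 6.15 and 6.73 TPM in Ctrl against 5.20, 5.29 and 4.68 TPM in Kmt5b sKO libraries (-0.28, adjusted p = 0.44, both from limma). In these 3 assembly factors, picked for their small p-values, the groups did not overlap, as was the case for 21.4% of all tested genes. No difference passed the test, and of the 8 assembly factors 4 had a positive and 4 a negative log2 fold change in the gene body. Uqcrfs1 held 35.3, 33.0 and 32.9 TPM in Ctrl against 28.8, 29.2 and 27.3 TPM in Kmt5b sKO libraries (-0.24, adjusted p = 0.36 from limma), likewise without overlap. The 3 assembly factors have long gene bodies (24759 to 105634 nt) and Uqcrfs1 a short one (4654 nt).

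For the pausing index no difference between the genotypes passed the test. No member of 84 and 0 of all 11698 genes (0.0%) passed the adjusted threshold in limma, and 1 member, Atp5k (log2 ratio 0.65), had an unadjusted p under 0.05, beside 3.86% of all genes. The median log2 ratio of the index was 0.00 over members and 0.05 over all genes. The libraries of the groups did not overlap for 9 of 84 members (10.7%), close to the 9.02% of all genes. Sdha, Sdhb and Sdhc of complex II were among these 9, and at this share their separation is not read as a trait of the complex. The index of Sdha was 1.53, 1.30 and 1.33 in Ctrl against 0.862, 0.919 and 1.10 in Kmt5b sKO libraries. Those of Sdhb (0.793, 0.788 and 1.08 in Ctrl, 1.24, 1.52 and 1.17 in Kmt5b sKO libraries) and Sdhc (0.936, 1.31 and 0.739 in Ctrl, 1.37, 1.32 and 1.44 in Kmt5b sKO libraries) were higher in Kmt5b sKO libraries. Each of the 3 had an adjusted p of 1.0 from limma.

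The 3 X-linked members were tested only in a fit that kept the sex chromosomes, and none passed. Ndufb11, a membrane subunit of complex I, held 13.4, 7.42 and 7.02 TPM in Ctrl against 16.2, 12.9 and 13.8 TPM in Kmt5b sKO libraries (log2 fold change 0.65, adjusted p = 0.27 from limma), and Ctrl replicate 1 fell among the Kmt5b sKO values. Its TSS region pointed the other way (-0.47, adjusted p = 0.66 from limma). Ndufa1 averaged 5.05 TPM and Cox7b 36.4 TPM in the gene body, with adjusted p-values of 0.46 and 0.93 from limma.

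Other genes of the pathway were examined in lists of assembly factors, the tricarboxylic acid cycle, regulators of mitochondrial biogenesis, and electron carriers with the enzymes that make them. Of 38 tested assembly factors of all complexes, which include the 8 described above, 0 were called in either region by limma, and 2 (TSS) and 1 (gene body) had an unadjusted p under 0.05. Over all tested genes 1.66% and 2.99% were called, and 11.0% and 15.9% had such a p. The 15 tested genes of the tricarboxylic acid cycle and the 18 regulators likewise had 0 calls in either region, with 1 and 2 genes at an unadjusted p under 0.05 in the TSS region and 0 and 2 in the gene body. Medians of the log2 fold change of these 3 lists lay between -0.01 and 0.05, and those of the electron carriers were -0.08 (TSS) and 0.01 (gene body). Among 17 electron carrier genes, Coq8a, an atypical kinase required for coenzyme Q synthesis, was called in the TSS region, with 37.0, 49.4 and 35.04 RPM in Ctrl against 73.8, 66.0 and 98.0 RPM in Kmt5b sKO libraries (0.96, adjusted p = 0.071 from limma). In this region no gene at all was called without the filter on low values, without the trend or with the replicate block, so that the calls of Coq8a and Tnnc1 were lost in each of these. The Coq8a groups did not overlap, and in the gene body the same gene differed by 0.96 on the log2 scale (limma, adjusted p = 0.13). Of the mitochondrially encoded genes, mt-Co1 had a mean of 44119 ± 1392 TPM in Ctrl against 38418 ± 8979 TPM in Kmt5b sKO libraries (SD, n = 3), and none of the 5 passed the test.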

How the data were processed

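Cultured proliferating MuSCs of the Ctrl and the Kmt5b sKO genotype gave 3 PRO-seq libraries each. Per the labels and the methods, the authors used Trimmomatic 0.39 for trimming, STAR 2.6.1d for alignment to GRCm38 (a read matching several positions was placed at 1 of them at random) and Picard 2.18.16 for duplicate removal, and counted the sense strand of 1 listed isoform per gene. The deposited TSS values, headed TPM, are called RPM here, and the deposited gene body values are TPM. Both are scaled to sequencing depth, so a change of total transcription cannot appear in them. The low values are whole multiples of 1 read (99.99% to 100% of TSS values, and 98.3% to 99.4% of body values of genes under 2000 nt), which gave the reads behind each value.

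Log2(value + 0.5) was fitted with limma 3.58.1 (genotype only, eBayes with a trend; R 4.3.3) over autosomal and mitochondrial genes whose means reached 0.5 in the TSS region and the body alike, with calls made below an adjusted p of 0.1 (Benjamini-Hochberg). Such fold changes understate changes of low genes. The fit was also run on simulated data with known changes, with the same dispersion for all genes and no filter on low values. That simulation does not address how the calls depend on the filter or the trend. edgeR 4.0.16 (quasi-likelihood) and DESeq2 1.42.0 were run on the recovered reads only as alternatives, beside other pseudocounts, filters, scalings, a replicate block and each library left out. Members and lists were chosen with earlier results of these data known. Named were the highest and lowest members by complex, those with the smallest p-values, tissue isoforms, complex II, X-linked members, the extremes of the pausing index, and list genes past the threshold; further genes were named after their values were seen. For 1 member, no value is reported here, although it entered all counts and fits. Promoters came from RefSeq (GRCm38.p6) and gene models from GENCODE M21, which matches the build of the table. On the same strand other annotated genes overlap the bodies of Ndufa13, Ndufb2, Ndufb8, Ndufb9, Cox4i1 and Atp5o, whose reads cannot be assigned to 1 gene. Scripts used Python 3.11.15 with pandas 2.3.3, scipy 1.17.1 and matplotlib 3.10.9.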

Additional observations from a re-analysis of the deposited data

How the results depend on the processing

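The medians over members were 0.13 (TSS), 0.10 (gene body) and 0.00 (pausing index) in the reported fit. Without single libraries they ranged from 0.02 to 0.19 in the TSS region, from -0.03 to 0.19 in the gene body and from -0.05 to 0.09 for the pausing index. Every alternative run moved them by less than 1 SD of the library medians (0.13, 0.18 and 0.14). As this SD was about as large as the medians or larger, the measure does not show that they are stable. Median of ratios scaling gave 0.05, 0.07 and -0.05, beside 0.00 over all genes in each. The number of members called in the reported fit was 1 for each region. In the TSS region it was 0 without the filter on low values, without the trend and with the replicate block, and 0 to 1 without single libraries. In the gene body it was 0 with a pseudocount of 0.1, without the filter, with a minimum mean of 2 (at which Cox6b2 was not tested), with the replicate block, in edgeR, in DESeq2 and at an adjusted p under 0.05, and 0 to 1 without single libraries. No member was called for the pausing index under any alternative run. Cox8b had adjusted p-values from 0.0010 to 0.32 over all alternatives in the TSS region and from 0.13 to 0.41 in the gene body, and Cox6b2 from 0.072 to 0.33. The other members named for a small p never passed, and none of the 11 members named for a small p changed direction. Over all genes, calls in the TSS region went from 207 to 0 without the filter, without the trend and with the block, to 64 at an adjusted p under 0.05, and to between 1 and 408 without single libraries. In the gene body they went from 372 to 0 with the block, to 748 in edgeR, to 1295 in DESeq2 and to 1 at an adjusted p under 0.05. They went to 0 without Ctrl replicate 1 or any single Kmt5b sKO library, to 261 without Ctrl replicate 2 and to 836 without Ctrl replicate 3. Libraries of the same replicate number did not deviate together (correlations from -0.33 to -0.03), so the numbers were not taken as pairs. The depth limits members with few reads: 2 to 5 tested members per library had under 10 TSS reads. The causes of these differences were not tested.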
